A study of Mus musculus with 12 samples.

Results

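Neurotrophins and the ligands of the glial cell line-derived neurotrophic factor (GDNF) family are secreted proteins that keep neurons alive, guide their axons and adjust their synapses. BDNF and NT-3 are made as precursors and signal through the receptor tyrosine kinases TrkB and TrkC, while p75NTR binds all neurotrophins and their precursors. GDNF binds the lipid-anchored co-receptor GFRα1, and the complex then activates the receptor tyrosine kinase RET. In the brain, BDNF acting on TrkB is known as a trophic factor for serotonergic neurons, and GDNF acting on RET as one for midbrain dopaminergic neurons.

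RNA of these factors was measured in the dorsal raphe (DR), a midbrain nucleus rich in serotonergic neurons that project to the forebrain. The 8 genes described are Bdnf, Ntf3 (which encodes NT-3), Gdnf, Ntrk2 (TrkB), Ntrk3 (TrkC), Ngfr (p75NTR), Ret and Gfra1, chosen by symbol out of 24421 genes with counts. STAT3 KO mice (n = 8) carried Sert Cre/+ and Stat3 fl/fl, so that STAT3 was deleted in cells that express the serotonin transporter. Control littermates (n = 4) carried Sert Cre/+ and Stat3 fl/+, so both groups had Cre and at least 1 floxed allele, and the controls were not wild-type. All mice were adults of 8 to 16 weeks at the start of experiments, on a C57BL/6 x 129 background. There were 2 females and 2 males among the controls and 4 of each sex among STAT3 KO. Each library came from 1 animal, and animals are named here by genotype and number. The tissue was a square below the aqueduct that held all cell types of the area, of which the serotonergic neurons are a part. In such bulk samples, fewer cells of a type and less RNA per cell cannot be told apart.

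Libraries held 24379588 to 29645210 counts on genes, at which depth 3 counts equal 0.101 to 0.123 CPM (the counts of a gene relative to all gene counts of its library), the floor used here, which covers counting error only. Levels of Stat3 were 65.9 ± 1.26 CPM (SD, n = 4) in controls and 66.6 ± 2.90 CPM (n = 8) in STAT3 KO, with a log2 fold change of -0.01 (95% interval -0.09 to 0.08, edgeR quasi-likelihood test, adjusted p = 0.992). Counts over the whole gene in all cells do not resolve the deleted exons of serotonergic cells. The study itself reported lower Stat3 in the DR of STAT3 KO mice by qRT-PCR of the deleted exons. It also reported less STAT3 immunostaining in serotonergic cells, but could not show that STAT3 was absent from every such cell. The 8 serotonergic markers summed to 1495 to 1899 CPM (controls) and 1374 to 2047 CPM (STAT3 KO), none at 0, and Tph2, the enzyme of serotonin synthesis, was the most abundant of them. The log2 fold change of Slc6a4, which encodes the serotonin transporter, was -0.08 (95% interval -0.48 to 0.33, adjusted p = 0.965). Several libraries stood apart in markers of neighbouring areas. The 6 dopaminergic markers summed to 563 CPM in control 3 against 293 to 419 CPM elsewhere, and the 9 forebrain markers to 273 CPM in control 4 against 18.0 to 92.4 CPM elsewhere. The 6 choroid plexus markers, led by Ttr, summed to 240 CPM in STAT3 KO 8 and 236 CPM in STAT3 KO 16 against 16.2 to 23.7 CPM elsewhere, and the cerebellar markers to 545 CPM in STAT3 KO 16 against 31.4 to 265 CPM elsewhere. Results for the 8 genes that rest on 1 of these animals are given with and without them.

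For 4 of the genes the 250 bases before the 5′-most annotated start are shown, from RefSeq on build GRCm38.p6 and read on the strand of the gene. Bdnf is shown because its window held the only match of the genes' 14 windows to TTCNNNGAA, the palindromic motif that STAT proteins bind, here in capitals. The match began 122 bases before the start. Ntf3 is shown as the gene with the lowest p for genotype, and Ngfr and Gfra1 as the pair of the 8 with the highest Pearson's r over animals. The windows lie at chr2:109674450-109674699 on the plus strand (Bdnf, 58.0% G or C), and on the minus strand at chr6:126166745-126166994 (Ntf3, 62.0%), chr11:95587699-95587948 (Ngfr, 70.4%) and chr19:58455399-58455648 (Gfra1, 52.4%).
Bdnf: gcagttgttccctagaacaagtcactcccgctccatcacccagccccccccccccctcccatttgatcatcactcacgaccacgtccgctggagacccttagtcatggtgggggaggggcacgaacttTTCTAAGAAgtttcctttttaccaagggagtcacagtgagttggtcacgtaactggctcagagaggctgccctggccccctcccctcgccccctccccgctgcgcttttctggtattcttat
Ntf3: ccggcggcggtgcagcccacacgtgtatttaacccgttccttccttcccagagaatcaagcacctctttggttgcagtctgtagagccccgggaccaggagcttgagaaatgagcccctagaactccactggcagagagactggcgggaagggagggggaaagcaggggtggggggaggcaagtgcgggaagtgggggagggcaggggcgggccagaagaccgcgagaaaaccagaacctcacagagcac
Ngfr: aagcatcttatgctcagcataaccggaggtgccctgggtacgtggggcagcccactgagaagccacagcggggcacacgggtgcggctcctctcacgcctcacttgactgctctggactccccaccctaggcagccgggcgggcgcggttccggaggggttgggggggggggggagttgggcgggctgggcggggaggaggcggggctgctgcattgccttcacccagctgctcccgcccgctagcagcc
Gfra1: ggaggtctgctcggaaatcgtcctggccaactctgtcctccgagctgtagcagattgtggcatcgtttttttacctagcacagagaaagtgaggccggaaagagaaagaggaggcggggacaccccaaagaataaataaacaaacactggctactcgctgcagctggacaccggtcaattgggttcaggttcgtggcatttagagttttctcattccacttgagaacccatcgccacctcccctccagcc
The motif was searched in windows of 300 bases, 250 before and 50 after each start, and 14 such windows of 6 of the genes were available. Among all 32851 promoter windows, 2726 (8.30%) held it. A match is a run of letters and no measured binding.

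Expressed as counts per kilobase of exon relative to the library's total (RPKM), TrkB, TrkC, RET and GFRα1 RNA each stood above that of its own ligand in the DR, whereas Ngfr stood below Bdnf. Ntrk2 stood highest at 39.4 ± 2.77 RPKM (SD over 12 libraries), followed by Gfra1 at 20.9 ± 1.77 and Ret at 15.5 ± 4.34 RPKM. Levels per length were 3.66 ± 0.459 RPKM for Bdnf, 2.45 ± 0.133 RPKM for Ntrk3 and 2.08 ± 0.481 RPKM for Ngfr. The ligands Ntf3, at 0.443 ± 0.172 RPKM, and Gdnf, at 0.119 ± 0.0496 RPKM, came last. Neighbours in this order were separated over all 12 libraries except Gfra1 and Ret, Ntrk3 and Ngfr, and Ntf3 and Gdnf, whose ranges overlapped. By CPM, the level of Ntrk2 lay at percentile 99.2 of the 15453 genes tested, whereas Ntf3 lay at percentile 6.44 and Gdnf at percentile 2.41. The counts do not separate full-length from truncated Trk receptors.

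**Figure D1:**
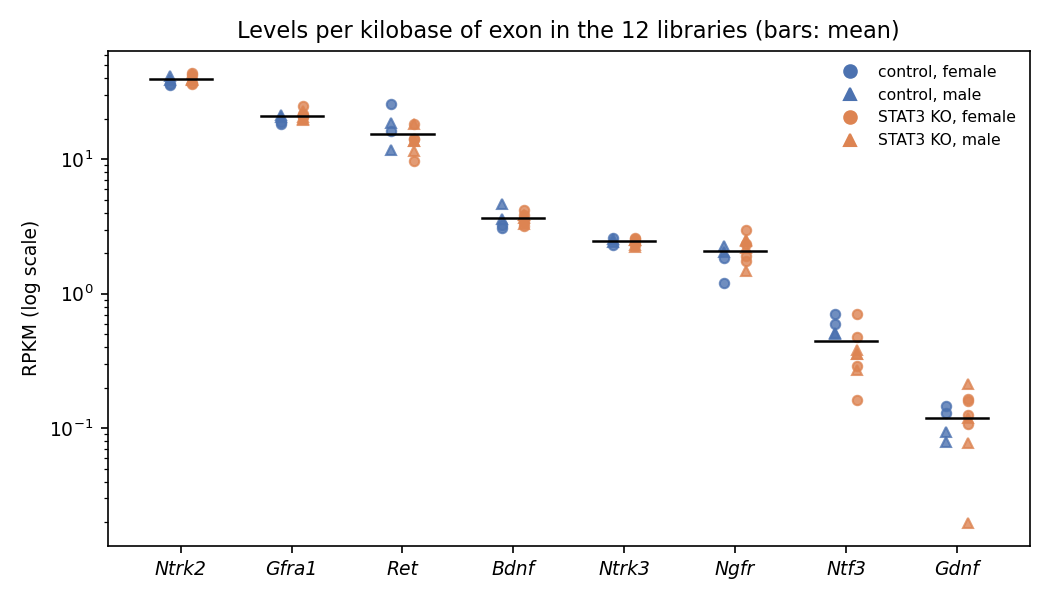
Level of each gene per kilobase of exon (RPKM, log axis) in the 12 libraries, controls in blue and STAT3 KO in orange, with circles for females, triangles for males and a bar at the mean of all libraries. Ntrk2 has the highest mean, 39.4 RPKM, and Gdnf the lowest, 0.119 RPKM, with 1 STAT3 KO library far below the others.

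Whether genotype changed these genes was tested with edgeR's quasi-likelihood test over 15453 genes, in which no gene passed an adjusted p of 0.05 (0.0% called) and 1184 (7.66%) had an unadjusted p below 0.05. All 8 genes passed the filter on low counts, none was called, and the lowest adjusted p was 0.633. At an unadjusted p below 0.05 stood 1 of the 8, Ntf3. The 8 log2 fold changes had a median of 0.02, beside -0.001 over all genes tested, with 4 below 0 and 4 above. With the default filter of DESeq2, which called 2 of 1391 genes (0.144%), 7 of the 8 had no adjusted p and could not be called. With the filter set for 0.05 all 8 had one and none was called, beside 6 of 20026 genes (0.03%), and 1 of the 8, again Ntf3, had an unadjusted p below 0.05 beside 6.21% of all. In none of the 8 did the 2 genotypes separate without overlap in CPM, beside 0.492% of all genes tested.

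**Figure D2:**
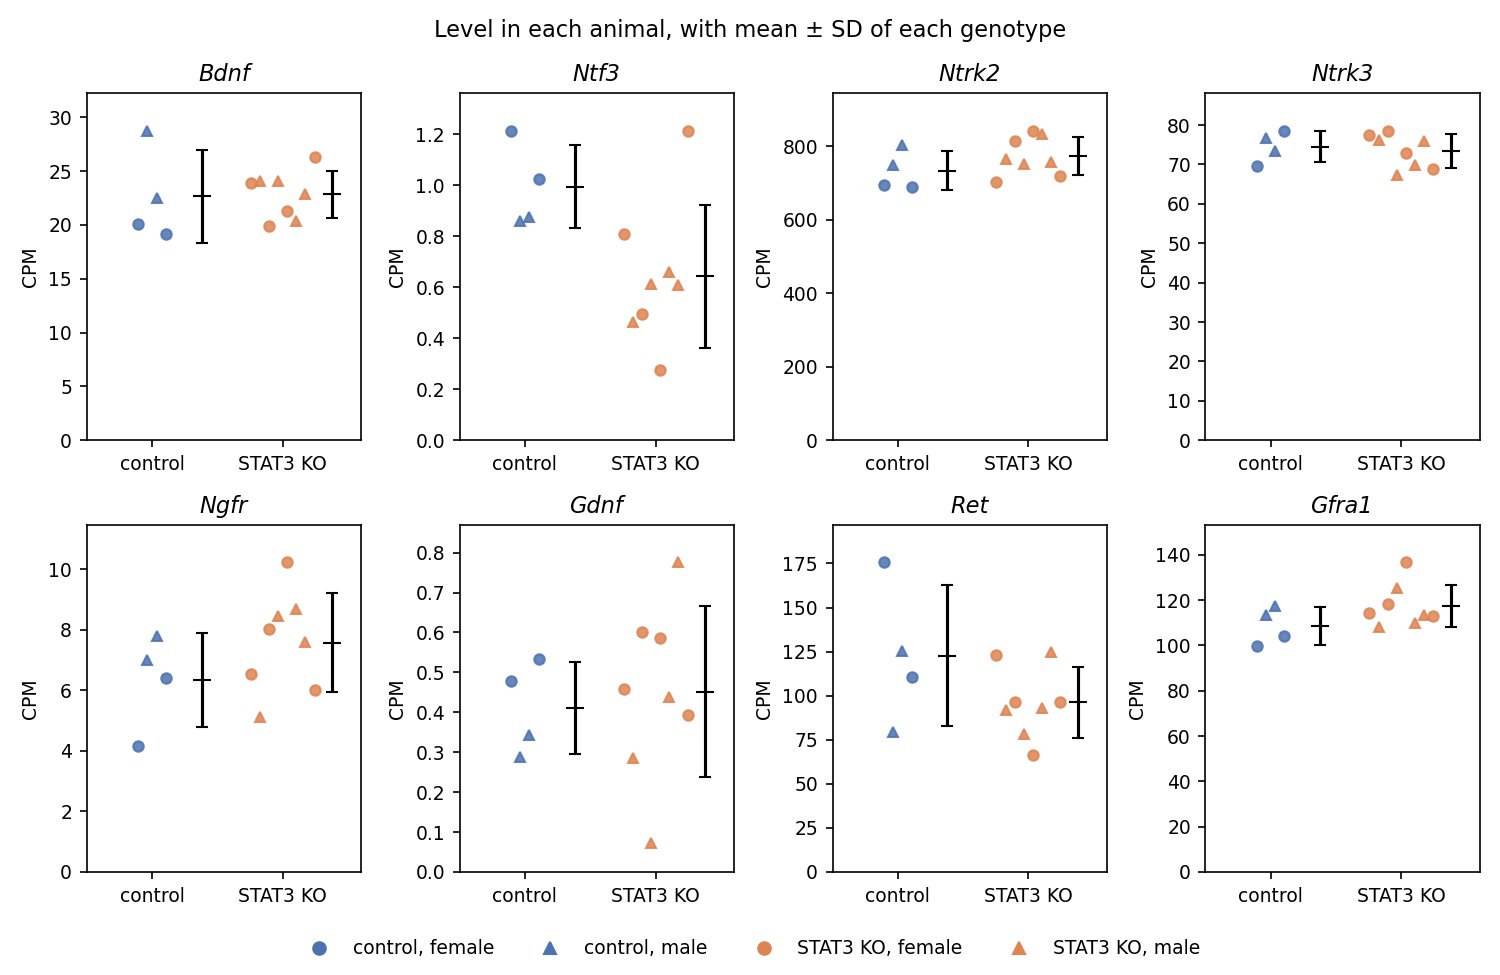
CPM of each gene in every animal by genotype, with circles for females, triangles for males and the mean ± SD of each group beside the points. The groups overlap in every panel, and for Ntf3 7 of 8 STAT3 KO animals lie below the lowest control.

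Of the ligands, Bdnf encodes the brain-derived neurotrophic factor and lies at chr2:109674700-109727007 on the plus strand (GRCm38, GENCODE vM21, as for all positions of genes below). In controls 3, 4, 11 and 13 its level was 20.1, 28.8, 22.5 and 19.2 CPM, and in STAT3 KO it ranged from 19.9 to 26.3 CPM with a median of 23.4. The highest library was control 4, and all 8 STAT3 KO animals lay within the range of the controls. The log2 fold change was -0.01 ± 0.10 (SE, 95% interval -0.22 to 0.20, quasi-likelihood test, adjusted p = 0.993). Without control 4 it was 0.13 (adjusted p = 0.701). Control 4 was also the library with the forebrain marker sum of 273 CPM, all 9 forebrain markers being present with Slc17a7 the most abundant, against 26.0 to 35.8 CPM in the other controls and 18.0 to 92.4 CPM in STAT3 KO. Over the 12 animals, Bdnf and this sum had a Pearson's r of 0.70 (permutation p = 0.0119, adjusted p = 0.166 over 120 relations of marker sums with the 8 genes) and a Spearman's rho of 0.39 (permutation p = 0.211, adjusted p = 0.666). The relation rested on control 4 and STAT3 KO 16, without which r was -0.004. Bdnf and the serotonergic sum had an r of 0.56, and by Pearson's r none of the 120 relations passed an adjusted p of 0.05. The part of these markers in the level of Bdnf was not tested.

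Ntf3 (chr6:126101412-126166910, minus strand) encodes NT-3, the ligand of TrkC, and was measured on 8 to 34 counts per library. Its level was 1.21, 0.862, 0.877 and 1.03 CPM in controls 3, 4, 11 and 13, and ranged from 0.276 to 1.21 CPM in STAT3 KO with a median of 0.610. Of the STAT3 KO animals 7 of 8 lay below the lowest control, while STAT3 KO 16, with 34 counts, equalled control 3 at 1.21 CPM. The log2 fold change was -0.65 ± 0.28 (SE, 95% interval -1.25 to -0.05), or a fold of 0.636, with an unadjusted p of 0.0349 and an adjusted p of 0.633 in the quasi-likelihood test. The two-sided exact permutation test gave p = 0.0404 without adjustment, and 1098 (7.11%) of all genes tested had a p below 0.05 in it. With single animals left out this permutation p ran from 0.00909 to 0.109, and it was above 0.05 without any 1 of 8 of the 12 animals. When single animals were left out, the log2 fold change lay between -0.84 (without STAT3 KO 16) and -0.54 (without control 3, unadjusted p = 0.115), and all 12 values were below 0, with an unadjusted p of 0.00318 to 0.115 in the quasi-likelihood test. Without both control 3 and control 4 it was -0.58 (unadjusted p = 0.153). Without both STAT3 KO 8 and STAT3 KO 16, the animals with high choroid plexus markers, it was -0.86 (unadjusted p = 0.00477, adjusted p = 0.363). Of these, STAT3 KO 16 also had the highest cerebellar marker sum (545 CPM) and gave -0.84 when left out alone. STAT3 KO 8 lay near the STAT3 KO median, at 0.613 CPM.

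Gdnf (chr15:7810846-7837575, plus strand) encodes GDNF and was close to the limit of detection, with 2 to 23 counts per library. Controls 3, 4, 11 and 13 had 0.478, 0.287, 0.343 and 0.533 CPM, and STAT3 KO animals 0.0721 to 0.776 CPM with a median of 0.449. The extremes were both STAT3 KO males, STAT3 KO 8 with 2 counts, which is below the floor of 3, and STAT3 KO 15 with 23 counts. The fitted log2 fold change was 0.13 ± 0.39 (SE, 95% interval -0.71 to 0.97, adjusted p = 0.972), so that a fold between 0.612 and 1.95 was not distinguishable at this depth. Without STAT3 KO 15 the log2 fold change was -0.03, without STAT3 KO 8 it was 0.29, and without both STAT3 KO 8 and STAT3 KO 16 it was 0.35 (unadjusted p = 0.275). The difference of mean log2 CPM in the exact permutation test was -0.02 (p = 0.972). The astrocyte marker sum (8 of 8 markers present) was highest, at 4203 CPM, in STAT3 KO 8, and spanned 3703 to 3884 CPM in controls and 3673 to 4203 CPM in STAT3 KO, and its part in the level of Gdnf was not tested. Over the 12 animals, Gdnf and this sum had a Pearson's r of -0.84 (permutation p = 0.00124, adjusted p = 0.0744 over 120 relations of marker sums with the 8 genes) and a Spearman's rho of -0.66 (permutation p = 0.0240, adjusted p = 0.360), with r at -0.70 without STAT3 KO 8 and STAT3 KO 5.

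Among the receptors, Ntrk2 encodes TrkB, the receptor of BDNF, and lies at chr13:58806569-59133970 on the plus strand. Its level was 695, 750, 802 and 689 CPM in controls 3, 4, 11 and 13, and ranged from 702 to 843 CPM in STAT3 KO with a median of 761. The groups overlapped, with 5 of 8 STAT3 KO animals inside the range of the controls and 3 above it. Its log2 fold change was 0.05 ± 0.06 (SE, 95% interval -0.07 to 0.17, adjusted p = 0.894). Ntrk2 varied little between animals, with a coefficient of variation (CV) of 7.02% over the 12 libraries.

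Ntrk3 (chr7:78175959-78738012, minus strand), which encodes the NT-3 receptor TrkC, was the steadiest of the 8 genes with a CV of 5.42%. Controls 3, 4, 11 and 13 had 69.7, 76.7, 73.3 and 78.5 CPM, and STAT3 KO animals 67.4 to 78.6 CPM with a median of 74.5. The 2 ranges were nearly the same, and the log2 fold change was -0.04 ± 0.05 (SE, 95% interval -0.15 to 0.06, adjusted p = 0.893). The lowest of the 12 levels were those of STAT3 KO 8 and STAT3 KO 16 (67.4 and 68.9 CPM), the animals with high choroid plexus markers, whose part was not tested, and without both the log2 fold change was -0.006 (unadjusted p = 0.893). The ratio of Ntrk2 to Ntrk3 counts lay between 8.77 in control 13 and 11.9 in STAT3 KO 14.

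Ngfr encodes p75NTR, the receptor shared by all neurotrophins, at chr11:95568818-95587735 on the minus strand. Its level was 4.16, 7.002, 7.78 and 6.40 CPM in controls 3, 4, 11 and 13, and ranged from 5.11 to 10.2 CPM in STAT3 KO with a median of 7.81. Control 3 was the lowest of all libraries and STAT3 KO 10 the highest, and 4 of 8 STAT3 KO animals lay above every control. The log2 fold change was 0.24 ± 0.18 (SE, 95% interval -0.15 to 0.62, adjusted p = 0.830), and 0.08 without control 3. The 7 cholinergic or motor neuron markers, of which 6 reached 10 counts in a library and Slc5a7 was the most abundant, summed to 127 to 181 CPM in controls and 82.8 to 212 CPM in STAT3 KO.

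Ngfr and that sum had, over the 12 animals, a Pearson's r of 0.76 (permutation p = 0.00422, adjusted p = 0.127 over 120 relations of 15 marker sums with the 8 genes) and a Spearman's rho of 0.91 (permutation p = 0.00015, adjusted p = 0.0180). Both values are on the log2 scale and both measures share a library and its depth. Without STAT3 KO 6 and control 3, the libraries farthest from the median of the marker sum, r was 0.70, and within the 8 STAT3 KO animals it was 0.80. The 4 controls were too few for a value of their own. By Spearman's rho this was the 1 relation of 120 that passed an adjusted p of 0.05, and by Pearson's r none passed. Its part in the spread of Ngfr was not tested.

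Ret encodes the receptor tyrosine kinase of the GDNF family and lies at chr6:118151745-118197718 on the minus strand. Its level was 176, 79.4, 125 and 111 CPM in controls 3, 4, 11 and 13, and ranged from 66.1 to 125 CPM in STAT3 KO with a median of 94.5. Control 3 was the highest library and 2 STAT3 KO animals, 8 and 10, lay below every control, while the other 6 lay inside the range of the controls. The log2 fold change was -0.37 ± 0.18 (SE, 95% interval -0.76 to 0.01), with an unadjusted p of 0.0548 and an adjusted p of 0.652 in the quasi-likelihood test and p = 0.152 in the exact permutation test. It was -0.14 (unadjusted p = 0.408) without control 3, -0.53 (unadjusted p = 0.00629, adjusted p = 0.313) without control 4 and -0.31 (unadjusted p = 0.101) without both.

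The spread of Ret between animals was wide for its level. Its biological coefficient of variation, the replicate spread beyond counting noise, was 20.7%, whereas the trend over genes of the same level was 7.20%. For Ntrk2, Ntrk3 and Gfra1 the values were 7.41%, 6.00% and 7.38%, beside trends of 8.25%, 7.58% and 7.14%. Ngfr had 20.1% beside a trend of 15.1%.

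The level of Ret was set beside the dopaminergic markers in each animal. All 6 of these markers were present, Aldh1a1 being the most abundant, and their sum was 303 to 563 CPM (controls) and 293 to 388 CPM (STAT3 KO). Control 3 had both the highest Ret and the highest sum, and STAT3 KO 10 both the lowest Ret and the lowest sum. Pearson's r between them was 0.86 (permutation p = 0.0005, adjusted p = 0.0600 over 120 relations) and Spearman's rho 0.74 (permutation p = 0.00776, adjusted p = 0.292). Without control 3 and STAT3 KO 10, r was 0.59, and within the 8 STAT3 KO animals it was 0.67. Of the other marker sums, that of the 7 mesencephalic trigeminal markers, 5 of which reached 10 counts in a library, had an r with Ret of 0.68 (permutation p = 0.0166, adjusted p = 0.200) and a rho of 0.78 (permutation p = 0.00424, adjusted p = 0.254), with r at 0.75 without control 4 and control 11. Its most abundant marker was Prph (20.5 to 26.7 CPM), which is also in the cholinergic or motor neuron list. The markers did not move as 1 set. Pou4f1 was highest in control 3 (19.5 CPM), whereas Avil was highest in STAT3 KO 8 (8.79 CPM) and stood at 2.54 CPM in control 3. The sum of the 5 noradrenergic markers, 4 of which reached 10 counts, had an r with Ret of -0.78 (permutation p = 0.00294, adjusted p = 0.118) and a rho of -0.71 (permutation p = 0.0122, adjusted p = 0.292), with r at -0.63 without STAT3 KO 15 and control 3. The part of any of these markers in the genotype difference of Ret was not tested. The corresponding r of Ret with the serotonergic sum was -0.14 (rho -0.23, permutation p = 0.656 and 0.470, adjusted p = 0.916 and 0.821), and 0.19 without the libraries farthest from its median.

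Gfra1 (chr19:58235604-58455909, minus strand) encodes the co-receptor that binds GDNF. Controls 3, 4, 11 and 13 had 99.6, 113, 118 and 104 CPM, and STAT3 KO animals 108 to 137 CPM with a median of 114. The lowest library was control 3 and the highest STAT3 KO 10, and 7 of 8 STAT3 KO animals lay above the mean of the controls. The log2 fold change was 0.09 ± 0.06 (SE, 95% interval -0.04 to 0.22, adjusted p = 0.787), and it was 0.05 without control 3 and 0.13 without control 11. The ratio of Ret to Gfra1 counts ran from 0.484 in STAT3 KO 10 to 1.76 in control 3, with 1.15 ± 0.445 (SD, n = 4) in controls and 0.830 ± 0.206 (n = 8) in STAT3 KO. Without control 3 the controls were at 0.942 ± 0.209 (SD, n = 3).

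**Figure D3:**
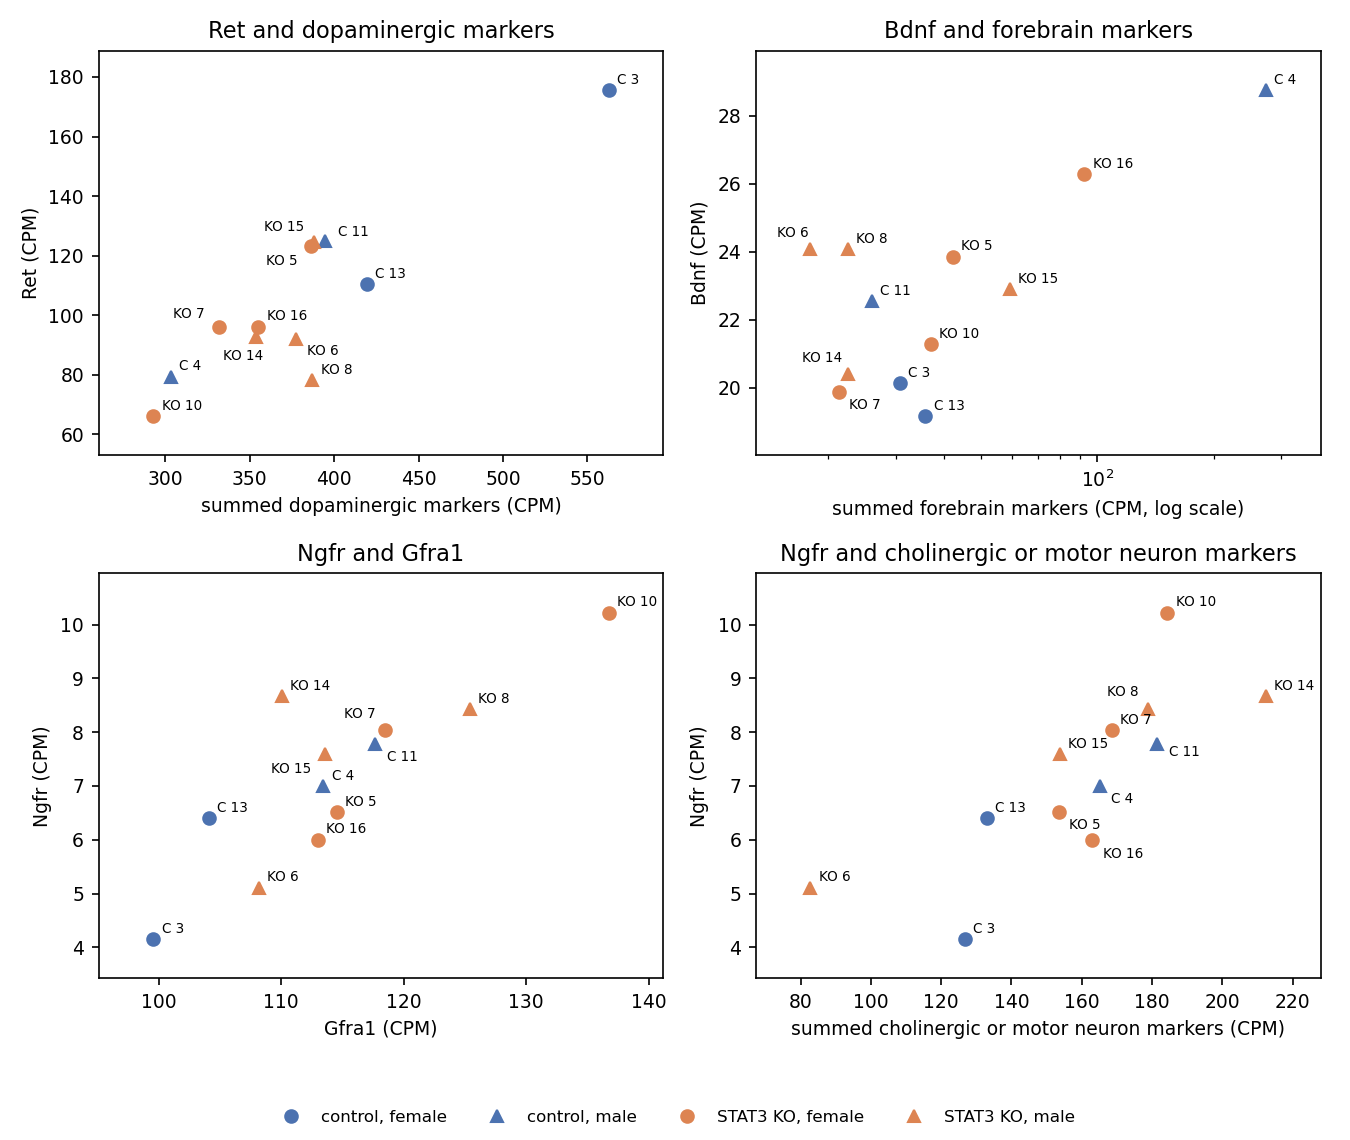
Each point is 1 animal, labelled C for control or KO for STAT3 KO with its number, and the panels plot Ret, Bdnf and Ngfr (CPM) against a summed marker level or Gfra1 (CPM, the forebrain sum on a log axis). Control 3 lies apart for Ret (176 CPM) and control 4 for Bdnf (28.8 CPM), while the points for Ngfr spread along a line from control 3 or STAT3 KO 6 to STAT3 KO 10 or STAT3 KO 14.

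Between pairs of the 8 genes, 28 correlations over the 12 animals were computed on the log2 scale. Ngfr and Gfra1, whose promoter windows are shown above, had the closest relation, with a Pearson's r of 0.82 (permutation p = 0.00139, adjusted p = 0.0389) and a Spearman's rho of 0.76 (permutation p = 0.0056, adjusted p = 0.157). Without control 3 and STAT3 KO 6 r was 0.75, and within STAT3 KO it was 0.76. Both values include STAT3 KO 10, the highest library for both genes. No other pair passed an adjusted p of 0.05 by either measure. Ret and its co-receptor Gfra1 had an r of -0.70 (permutation p = 0.0133, adjusted p = 0.0818) and a rho of -0.43 (permutation p = 0.160, adjusted p = 0.408), which rested on control 3 and STAT3 KO 10, since r was -0.24 without them. Within the 8 STAT3 KO animals, which include STAT3 KO 10, r was -0.71. Ntf3 and Ntrk3, a ligand and its receptor, had an r of -0.10 (permutation p = 0.759, adjusted p = 0.904) and a rho of -0.09 (permutation p = 0.785, adjusted p = 0.879), with r at -0.14 without STAT3 KO 10 and control 3. Bdnf and Ntrk2 had an r of -0.17 (permutation p = 0.606, adjusted p = 0.904) and a rho of -0.13 (permutation p = 0.683, adjusted p = 0.832). For this pair r was -0.53 without control 4 and control 13, and -0.84 within the 8 STAT3 KO animals, a value noticed afterwards and not tested.

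Both sexes were sequenced, and the interaction of genotype with sex was tested over all genes. No gene had an adjusted p below 0.05 for the interaction (0.0% called), and 848 (5.49%) had an unadjusted p below 0.05, among them 2 of the 8 genes, Bdnf and Gfra1. For Bdnf the log2 fold change was 0.19 ± 0.12 (SE) in females and -0.19 ± 0.12 in males, an interaction of -0.37 (unadjusted p = 0.0437, adjusted p = 0.907). Female controls had 20.1 and 19.2 CPM and male controls 28.8 and 22.5 CPM, the highest being control 4. Without control 4 the interaction of Bdnf was -0.19 (unadjusted p = 0.290), and without control 11 -0.53 (unadjusted p = 0.00775).

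For Gfra1 the log2 fold change was 0.22 ± 0.08 (SE) in females and -0.03 ± 0.08 in males, an interaction of -0.25 (unadjusted p = 0.0412, adjusted p = 0.907). With single animals left out it ran from -0.30 to -0.19, with an unadjusted p of 0.0113 to 0.119 in the quasi-likelihood test. Female controls had 99.6 and 104 CPM, which lay below all 4 STAT3 KO females (113 to 137 CPM), whereas male controls (113 and 118 CPM) lay inside the range of STAT3 KO males (108 to 125 CPM). Of all genes tested, 22.3% separated without overlap by genotype in females, 14.4% with the higher levels in STAT3 KO, and 9.38% separated in males. Within females, 1591 genes (10.3%) had an unadjusted p below 0.05 for genotype in the quasi-likelihood test of edgeR, among them Gfra1 (adjusted p = 0.343) and Ret (adjusted p = 0.392). In females Ret had a log2 fold change of -0.61 ± 0.24 (SE), which was -0.23 (unadjusted p = 0.448) without control 3 and -0.91 (unadjusted p = 0.00686) without control 13. For Gfra1 in females these were 0.19 (unadjusted p = 0.0942) and 0.25 (unadjusted p = 0.0356), where the 1 female control left was assumed to vary like the other groups. Within males, 445 genes (2.88%) had an unadjusted p below 0.05, none of the 8 among them, and Ret was at -0.09 ± 0.25 (SE). The female controls were control 3, with the highest Ret of all at 176 CPM, and control 13 at 111 CPM. The interaction of Ret was 0.52 ± 0.35 (SE, adjusted p = 0.958). It was 0.14 (unadjusted p = 0.716) without control 3, 0.23 (unadjusted p = 0.558) without control 4, 0.89 (unadjusted p = 0.0372) without control 11 and 0.82 (unadjusted p = 0.0473) without control 13. Each sex had 2 controls, so that 1 animal is a large share of every such value. Between males and females, 13 of all genes (0.0841%) differed at an adjusted p below 0.05, and none of the 8 was among them.

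**Figure D4:**
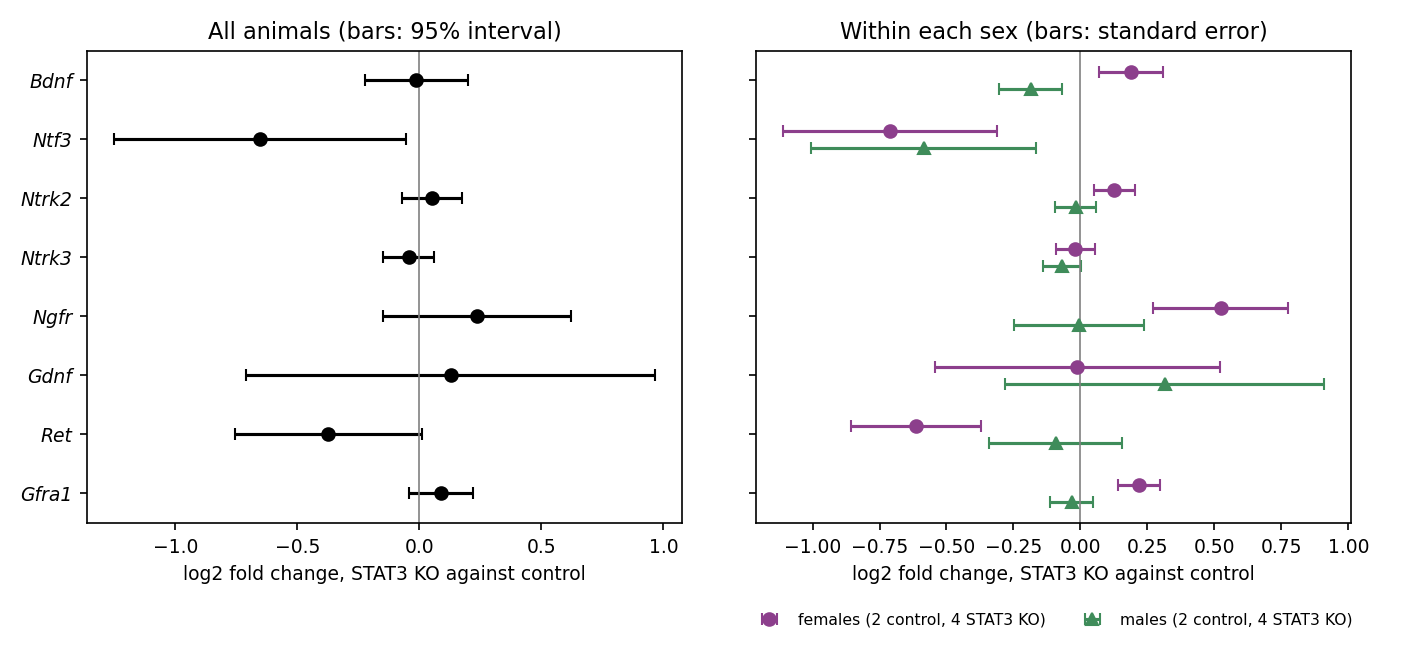
Log2 fold change of STAT3 KO against control for the 8 genes, on the left for all animals with 95% intervals and on the right within females and within males with standard errors. The interval of Ntf3, from -1.25 to -0.05, is the only one that leaves out 0. Estimates of females and males lie on opposite sides of 0 for Bdnf, Ntrk2, Ngfr, Gdnf and Gfra1, but only for Bdnf do the standard errors of both sexes leave out 0. No gene had an adjusted p below 0.05 for the interaction.

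The genes whose level followed each of the 8 most closely were ranked by Pearson's r of log2 CPM over the 12 libraries, among all 15453 genes tested. The 3 closest to Ret were Nefm (r = 0.95), a neurofilament subunit, and Foxa1 and Foxa2 (both r = 0.95), transcription factors of midbrain floor plate and dopaminergic neurons. All 3 were highest in control 3 and lowest in STAT3 KO 10, as Ret itself was. Ngfr was followed most closely by Astn1 (r = 0.92), Plch1 (r = 0.91) and Pcdh10 (r = 0.91), and Gfra1 by Plch1 (r = 0.92), Gpr101 (r = 0.90) and the serotonin receptor gene Htr2c (r = 0.90), so that Plch1, a phospholipase C gene, stood in both lists. These 5 genes were lowest in control 3 and highest in STAT3 KO 10.

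For Bdnf the closest were Ywhah (r = 0.91), Mrpl53 (r = 0.90) and the GABA-A receptor subunit gene Gabra4 (r = 0.90). For Ntrk2 they were Ptprt (r = 0.95), a receptor tyrosine phosphatase gene, Nrp2 (r = 0.88) and Fam149a (r = 0.88), and for Ntf3 Parp6 (r = 0.87), the potassium channel gene Kcnk13 (r = 0.87) and Recql (r = 0.86). Gdnf was followed by Proser1 (r = 0.94), Ksr1 (r = 0.94) and Dennd1a (r = 0.93), each lowest in STAT3 KO 8, the library with 2 counts of Gdnf. Ntrk3 was followed by Snora17 (r = 0.90), at a mean of 0.331 CPM, Plscr5 (r = 0.85) and Slc9a5 (r = 0.84). These values were picked as the highest of many and describe these 12 libraries, which share their depth and dissection.

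Other genes of the pathway were described from lists of ligands and other trophic factors, receptors, processing enzymes, relay proteins and response genes, 77 genes in all. None was called at an adjusted p below 0.05. The first list held 8 genes, among them Cdnf and Manf, whose products are trophic factors but not ligands of the receptors described here. Of the 8, 5 passed the filter and none had an unadjusted p below 0.05, with a median log2 fold change of -0.13. The highest was Cdnf at 0.28 (controls 1.65 ± 0.213 CPM, STAT3 KO 2.03 ± 0.338 CPM, adjusted p = 0.711). Ntf5, Pspn and Gdf15 did not pass the filter.

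Of 13 other receptors 11 were tested, with a median of 0.04. Sorcs1, a sorting receptor of the sortilin family, stood at 0.10 (controls 62.8 ± 2.32 CPM, STAT3 KO 68.3 ± 3.46 CPM, unadjusted p = 0.0363, and 0.119 without control 3), beside 3.61% of all genes with an unadjusted p below 0.05 and a higher level in STAT3 KO. Sort1 encodes sortilin, the partner of p75NTR in binding precursor neurotrophins, and stood at -0.15 (334 ± 13.2 and 307 ± 21.8 CPM, unadjusted p = 0.0166, and 0.0548 without control 3 or 0.0524 without control 4), beside 4.05% of all genes with a lower level. The adjusted p was 0.633 for Sorcs1 and 0.615 for Sort1 in the quasi-likelihood test. Of 9 genes that process or release the ligands, all were tested and none had an unadjusted p below 0.05, with a median of 0.01, a highest value of 0.11 for the convertase gene Furin and a lowest of -0.37 for Plg, the plasminogen gene.

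Of the 25 genes that relay the signal inside the cell, all tested, 1 had an unadjusted p below 0.05, the adaptor gene Gab1 at -0.09 (74.2 ± 2.65 and 71.0 ± 2.83 CPM, unadjusted p = 0.0484, and 0.165 without control 3), and the median was -0.02. Of 22 response genes 21 were tested, with a median of -0.11 and 16 values below 0, and 4 had an unadjusted p below 0.05 and a lower level in STAT3 KO, beside 4.05% of all genes. These were Homer1 (-0.31, unadjusted p = 0.00556), a synaptic scaffold gene, Etv4 (-0.23, unadjusted p = 0.00902), an ETS factor gene downstream of RET, Spred1 (-0.11, unadjusted p = 0.0120), an inhibitor of the Ras pathway, and Egr3 (-1.42, unadjusted p = 0.0215), an immediate early gene. The adjusted p of each was 0.615. Egr3 was measured at 2.10 to 25.4 CPM in controls, the highest being control 4, and at 1.72 to 5.50 CPM in STAT3 KO, and without control 4 its log2 fold change was 0.33. Homer1 was also highest in control 4 and stood at -0.17 without it, while Etv4 and Spred1 were at -0.22 and -0.11 without it. For Spred1 the unadjusted p was 0.0540 without control 11.

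**Figure D5:**
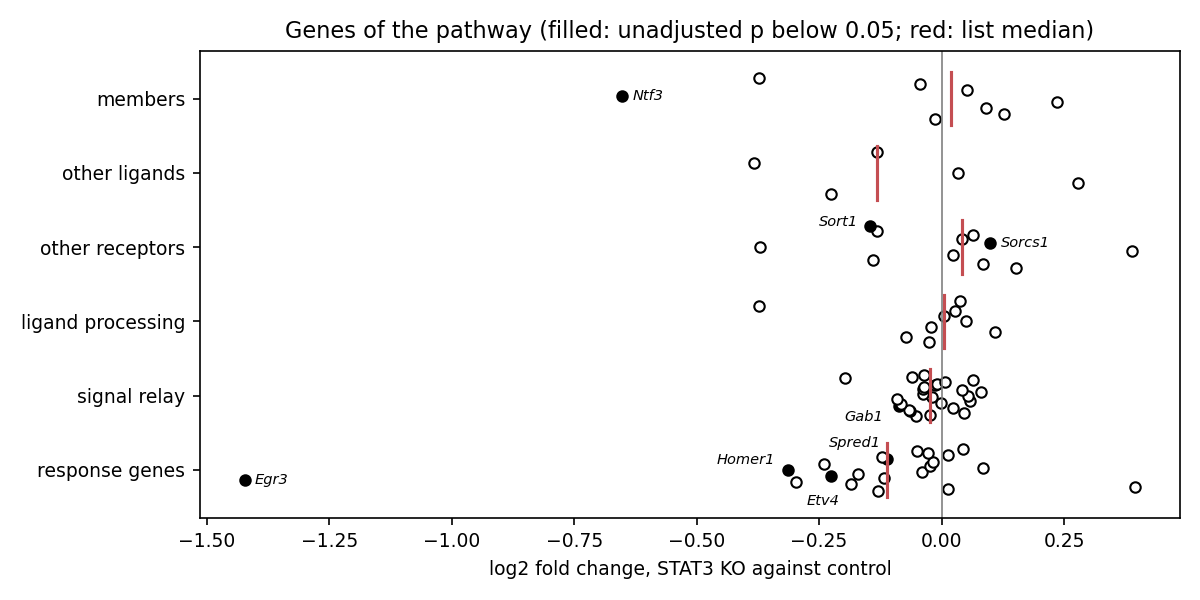
Log2 fold change of STAT3 KO against control for every tested gene of the 8 described here (members) and of the 5 lists, with filled points for an unadjusted p below 0.05 and a red line at the median of each list. Egr3 lies farthest from 0, at -1.42, and no gene has an adjusted p below 0.05.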

How the data were processed

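RNA of the DR was sequenced by the authors in 75 bp single reads, with 1 library for each of 12 mice. The deposited files hold raw counts per gene symbol, which the authors did not normalise or pool. Per the labels, the submitters' processing notes list STAR 2.5.0b, DESeq2 1.6.3, bcl2fastq and the mm10 assembly. The read counter, the annotation and the use of strand are not given in the sources used here. Without strand, reads of a gene and of a transcript antisense to it cannot be told apart, and such annotated transcripts overlap Bdnf, Ntrk2, Ntrk3 and Gfra1. The 2 rows for reads with no gene or an ambiguous one, 13.4% to 15.3% and 0.507% to 0.562% of counts, were left out. No library was a copy of another, since differences over 66 pairs were 5.24 to 29.1 times counting noise, across 13400 genes.

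Groups were taken from the genotype and sex labels, and animal numbers from the titles. CPM was computed over all gene rows, and RPKM used the union of exons in GENCODE vM21. Genotype was tested with edgeR 4.0.16 in R 4.3.3 (two-sided quasi-likelihood test, TMM, filterByExpr at 10 counts per library and 15 in total, no covariate), with Benjamini-Hochberg adjustment over 15453 genes at a threshold of 0.05. The interaction used genotype, sex and both together. For each of the 8 genes, mean log2 CPM (prior count 2) was further tested by exact permutation over 495 splits, two-sided, with 0.00202 as the smallest p. Correlations used 100000 permutations. The labels give no batch, and p-values measure the spread between these animals. Alternatives were DESeq2 1.42.0, the likelihood ratio test, limma-voom (limma 3.58.1), RLE scaling, other filters, sex as a covariate, other scales for the permutation test, and each animal left out in turn. Leaving out controls 3 and 4 together, leaving out STAT3 KO 8 and 16 together, leaving out each female control within females and a DESeq2 filter set for 0.05 were added after seeing the data. Promoter windows were built on RefSeq starts, and the set of windows used here covered 6 of the 8 genes, all but Ntrk3 and Ret. Tables were made in Python 3.11.15. The fits were tested on simulated data at an adjusted p below 0.05. False calls were 3.93% of all calls of the quasi-likelihood test for genotype and 6.43% for the interaction. They were 11.3% for the likelihood ratio test and 10.9% for DESeq2.

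The 8 genes, the lists of pathway genes and markers, and the tests were chosen with earlier results of these data known. Genes named in the text are the 8 members, Stat3, Tph2, Slc6a4, the pathway genes with an unadjusted p below 0.05 (else the highest and lowest of a list), the 3 genes closest to each member, and the most abundant marker of each list used. The 3 ligand genes that did not pass the filter were named after their values were seen, and 1 gene that this rule names is not reported here.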

Additional observations from a re-analysis of the deposited data

Results flagged for a closer look

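In 3 of 46 groups of values examined, 1 library stood far from the rest of its group, and chance gives such a gap in about 1 of 20 groups (2.3 of 46). None of the 3 was the level of one of the 8 genes. The summed forebrain markers of control 4 were 8.10 on the log2 CPM scale, against 4.70 to 5.16 in the other controls, and this animal also had the highest Bdnf of the 12. The summed cerebellar markers of control 3 were 7.07, against 5.06 to 5.37 in the other controls, and this animal had the highest Ret and the lowest Ngfr and Gfra1. STAT3 KO 10 and STAT3 KO 16 had higher cerebellar sums, 265 and 545 CPM against 134 CPM in control 3, and STAT3 KO 10 had the lowest Ret and the highest Ngfr and Gfra1. The summed cholinergic or motor neuron markers of STAT3 KO 6 were 6.37, against 7.26 to 7.73 in the other STAT3 KO animals, and this animal had the lowest Ngfr and Gfra1 of STAT3 KO. The part of these markers in the levels of the 8 genes was not tested.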

How the results depend on the processing

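No paired analysis was possible because the animal numbers of the genotypes differ and no number is shared. Of the values recomputed, 430 kept their direction and their side of the threshold, 26 changed sign and 7 counts moved by over 1.5 times, where fits were read on the adjusted p and the permutation test on its own p. In the permutation test 8 values lost and 1 gained a p below 0.05. The count of genes called for genotype, 0 (1184 at an unadjusted p below 0.05), was 2 with DESeq2, 6 with DESeq2 filtering set for 0.05 (1244 unadjusted), 3 with the likelihood ratio test, and 0 to 1 with an animal left out. None of the 8 genes was called in these fits, but with the default filter of DESeq2 7 of them had no adjusted p and are not among the values counted above. For the interaction the count, 0, was 0 to 37 with an animal left out, 37 without control 11. The cause was not tested.

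With 1 animal left out, log2 fold changes ran from -0.083 to 0.13 for Bdnf, -0.84 to -0.54 for Ntf3, 0.02 to 0.10 for Ntrk2, -0.07 to -0.02 for Ntrk3, 0.08 to 0.35 for Ngfr, -0.028 to 0.29 for Gdnf, -0.53 to -0.14 for Ret and 0.05 to 0.13 for Gfra1. Bdnf was also above 0 with limma-voom (0.013) and without controls 3 and 4 (0.11). Interaction terms ran from -0.14 to 0.53 for Ntf3, -0.14 to 0.028 for Ntrk3 and -0.26 to 0.66 for Gdnf, and so changed sign. In the permutation test, log2 differences ran from -0.075 to 0.12 for Bdnf, -0.81 to -0.54 for Ntf3 (p = 0.00909 to 0.109 in exact tests, above 0.05 without any 1 of 8 of the 12 animals), -0.15 to 0.22 for Gdnf and -0.53 to -0.15 for Ret (exact p = 0.0485 without control 4). On the scale of mean CPM after TMM scaling the differences were -0.18 CPM for Bdnf and 0.035 CPM for Gdnf. With a filter of 10 counts in every library, Ntf3 and Gdnf gave no value. Counts per library were 8 to 34 for Ntf3 and 2 to 23 for Gdnf.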
